A study of Homo sapiens with 4 samples.

Results

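Heat shock proteins and J-domain proteins are molecular chaperones, which bind proteins that are not yet folded or have lost their fold and help them to reach or regain it. HSP70 proteins bind short stretches of their clients in cycles of ATP hydrolysis. DNAJ (HSP40) proteins bring clients to HSP70 and start that hydrolysis, while HSP110 proteins and other exchange factors release the nucleotide. HSP90 acts later on clients such as kinases and steroid receptors, HSP60 with its lid HSP10 folds proteins in mitochondria, and small HSP hold unfolded proteins without ATP. Many of these genes are driven in stressed cells by the transcription factor HSF1, and those of the endoplasmic reticulum (ER) by the unfolded protein response. The members were all symbols of the deposited count table that begin with HSPA, HSPB, HSPD, HSPE, HSPH, HSP90, DNAJA, DNAJB, or DNAJC followed by a number. This gave 73 of 18449 symbols, with 14 HSP70, 1 HSP110, 7 small HSP, 3 HSP90, 3 HSP60 and HSP10, 4 DNAJA, 12 DNAJB, and 29 DNAJC genes.

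RNA was sequenced from BT-16 and CHLA-266, 2 established cell lines of atypical teratoid/rhabdoid tumors of the MYC subtype (AT/RT-MYC), before and after treatment. Treated cells had received 1 µM doxorubicin (doxo), 5 µM etoposide (eto), and 1 µM vincristine (vin) on consecutive days. Doxo and eto poison topoisomerase II and vin blocks microtubule assembly. According to the methods, most cells died and the treated libraries came from the cells that grew back weeks later, so they do not show the acute response to the drugs. From either cell line 1 library was made per condition, each from a pool of cells, and all 4 libraries carried the same batch label. The groups compared were therefore 2 untreated against 2 treated libraries, in which the cell line served as the replicate. Total counts were 75087194 before and 51489714 after treatment in BT-16, and 66192504 before and 49849258 after in CHLA-266. *SMARCB1*, whose loss defines most AT/RT, was not at 0 but had 1394 counts before and 981 after treatment in BT-16, and 1313 before and 827 after in CHLA-266, and counts per gene do not show whether a transcript is intact.

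The treated libraries held more signal from genes that these cells are not thought to use. The counts of 388 olfactory receptor genes summed to 501 before and 5499 after treatment in BT-16 and to 526 before and 3731 after in CHLA-266. The 95th percentile of these genes rose from 4.14 to 30.1 counts per kilobase in BT-16 and from 3.62 to 21.2 in CHLA-266, which is given here as a yardstick for members of low count. Markers of other cell types moved the same way: 4 of 12 macrophage and lymphoid genes, 2 of 8 fibroblast and endothelial genes, 5 of 8 muscle genes, and 3 of 10 testis and cilium genes were upregulated, and no gene of these lists was downregulated. Macrophage and lymphoid genes summed to 3.51 to 6.83 CPM (counts scaled to a common library size by TMM) in untreated and 11.3 to 14.1 in treated libraries, with 4 and 5 of them at 0 before and 1 and 2 after treatment. The sums were 4.87 to 10.3 and 14.1 to 27.2 CPM for fibroblast and endothelial genes, and 4.23 to 5.18 and 7.62 to 12.9 CPM for testis and cilium genes. Muscle genes were not low before treatment, with sums of 433 to 479 CPM in untreated and 1077 to 1576 in treated libraries, nearly all from *TTN* and *TNNT1*. Their part in the results was not tested. Counts do not tell fewer cells that use a gene from less RNA per cell.

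Of the 73 members, 70 had at least 1 count and were tested, while *HSPB2*, *HSPE1-MOB4*, and *DNAJC25-GNG10* were at 0 in all 4 libraries. After treatment 7 members were upregulated and 20 were downregulated (edgeR, adjusted *p* value under 0.05 over 18066 genes), against 16.1% and 19.1% of all genes tested. The upregulated members were *HSPB8*, *HSPA2*, *DNAJB4*, *DNAJB9*, *HSPA12A*, *HSPA1A*, and *DNAJB2*. The downregulated members included all 3 HSP90 genes, *HSPD1* and *HSPE1*, *HSPH1*, and 6 of 14 HSP70 genes. The median log2 fold change was −0.17 for the members and 0.24 for all genes. Members are mostly abundant genes, and abundant genes as a whole were lower in the treated libraries with TMM scaling. Among members with a mean of at least 1000 counts, 5 of 46 were upregulated and 20 downregulated with a median of −0.42, against 10.3% and 37% of the 7851 genes of such abundance, whose median was −0.33. Among the other 24 members, 2 were upregulated and none was downregulated, with a median of 0.82.

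**Figure D1:**
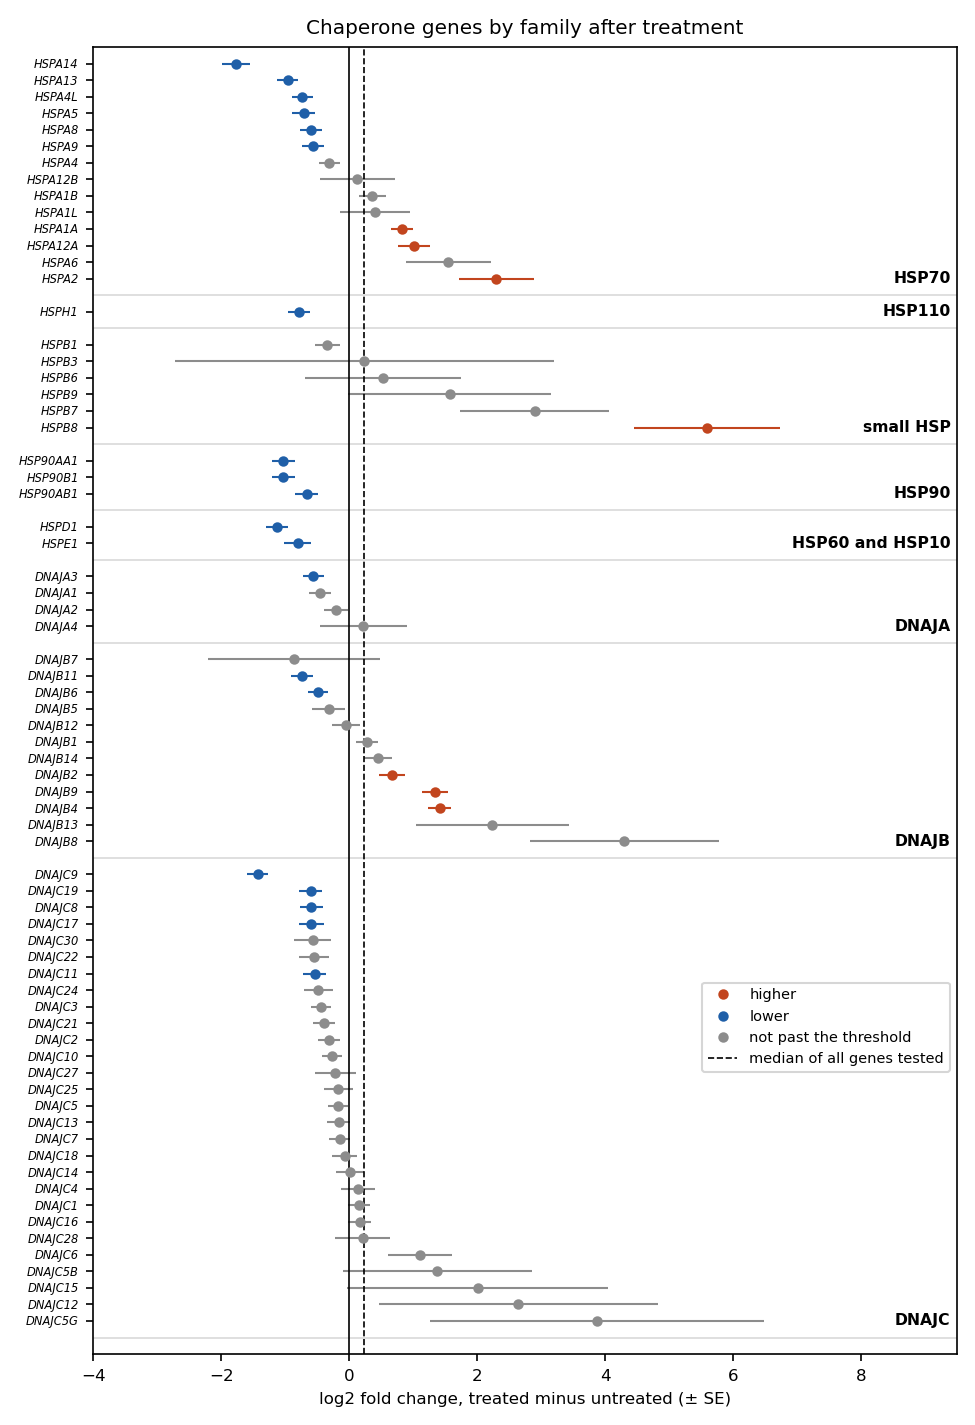
log2 fold change after treatment of the 70 members tested, grouped by family on the vertical axis. Points are edgeR estimates and bars their SE; red and blue mark members past the threshold, and the dashed line is the median of all genes (0.24). All 3 HSP90 genes lie below 0, whereas HSP70 and DNAJB hold members on both sides.

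The scaling of the libraries set how many members counted as lower. With upper-quartile normalization in place of TMM, the median of all genes moved from 0.24 to 0.59, and 13 members were upregulated and 6 downregulated, against 24.1% and 10.5% of all genes. The median of the members minus that of all genes was −0.41 with each of the scalings tried. A scaling shifts all genes by about the same amount, so this constancy is built in and is no separate support. All 7 upregulated members kept their call under TMM, size factors (RLE), upper quartiles, and library totals. Of the 20 downregulated members, *HSPA13*, *HSPA14*, *HSP90AA1*, *HSP90B1*, *HSPD1*, and *DNAJC9* kept theirs under all 4 scalings, and each of the 20 kept a log2 fold change below 0. By family, upper quartiles gave 4 upregulated and 2 downregulated HSP70 genes, 6 and 0 in DNAJB, 2 and 1 in DNAJC, and 0 and 2 in HSP90, whose *HSP90AB1* lost its call. Without the untreated BT-16 library 11 members were downregulated, and without the untreated CHLA-266 library 9 were.

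**Figure D2:**
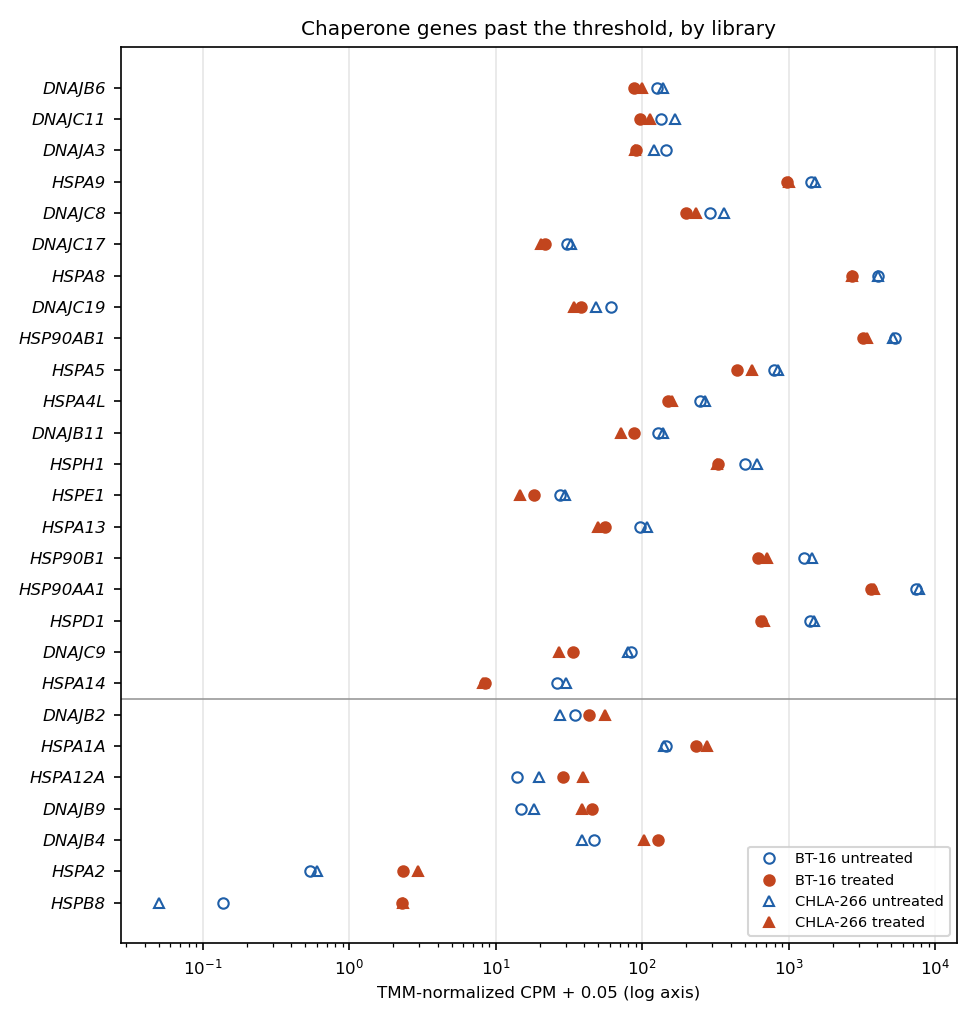
Normalized level of the 27 members past the threshold in each library. The horizontal axis is TMM-normalized CPM with 0.05 added, on a log scale; open blue marks are untreated and filled red marks treated libraries, circles BT-16 and triangles CHLA-266. The 20 downregulated members lie above the grey line and the 7 upregulated members below it, and in each of them both treated libraries lie on the same side of both untreated libraries.

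The HSP90 family held the most abundant members, and all 3 genes were downregulated. *HSP90AA1*, the stress-inducible cytosolic HSP90, had 7435 CPM before and 3631 after treatment in BT-16, and 7739 before and 3795 after in CHLA-266, a log2 fold change of −1.03 ± 0.18 (SE, n = 2 libraries per condition, adjusted *p* value = 0.00331). *HSP90AB1*, its constitutive counterpart, went from 5277 to 3206 CPM in BT-16 and from 5156 to 3411 CPM in CHLA-266 (−0.66 ± 0.18, adjusted *p* value = 0.0205). *HSP90B1* (GRP94), the HSP90 of the ER, went from 1279 to 615 CPM and from 1429 to 712 CPM (−1.03 ± 0.18, adjusted *p* value = 0.0031). The level per kilobase of *HSP90AA1* was 1.12 and 1.19 times that of *HSP90AB1* in untreated BT-16 and CHLA-266 cells and 0.896 and 0.881 times after treatment in the same order. The change of this ratio depends on neither the scaling of libraries nor the transcript lengths, whereas its place above or below 1 depends on the lengths. With 2 libraries per condition, an exact two-sided permutation test cannot give a *p* value below 0.333.

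Among HSP70 genes, *HSPA8*, *HSPA9*, and *HSPA5* fell, while *HSPA1A* rose. *HSPA8* (HSC70), the constitutive HSP70 of the cytosol, had 4086 and 4072 CPM in untreated and 2699 and 2718 CPM in treated BT-16 and CHLA-266 cells (−0.59 ± 0.17, adjusted *p* value = 0.0285). *HSPA9* (mortalin), which works in mitochondria, went from 1428 to 975 CPM and from 1503 to 996 CPM (−0.57 ± 0.17, adjusted *p* value = 0.0274). *HSPA5* (BiP), the HSP70 of the ER, went from 796 to 441 CPM in BT-16 and from 839 to 557 CPM in CHLA-266 (−0.71 ± 0.18, adjusted *p* value = 0.0166). *HSPA8* and *HSPA9* lost their call with upper quartiles and with library totals, and *HSPA5* with upper quartiles. The 2 untreated libraries were close to each other for all 3 genes, and no treated library reached them.

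*HSPA1A* (chr6:31815543-31817946, 1 exon) encodes the HSP70 that stressed cells induce. Its level was 145 CPM before and 231 after treatment in BT-16, and 141 before and 278 after in CHLA-266, a log2 fold change of 0.83 ± 0.17 (adjusted *p* value = 0.00653). Its neighbor *HSPA1B* (chr6:31827738-31830254, 1 exon) encodes nearly the same protein and had 36.8 CPM before and 39 after treatment in BT-16, and 26.3 before and 42 after in CHLA-266 (0.36 ± 0.21, adjusted *p* value = 0.197). The split between both genes is uncertain, since 72.3% of the windows of 1 read length of *HSPA1A* also occur in transcripts of other genes, mainly *HSPA1B*. Summed, they had 182 CPM before and 270 after treatment in BT-16, and 168 before and 320 after in CHLA-266. Per kilobase, *HSPA1A* stood at 0.0335 and 0.0327 of the level of *HSPA8* before treatment and at 0.0808 and 0.0966 after it.

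Other HSP70 genes were far less abundant. *HSPA12A*, a distant relative of HSP70, went from 13.9 to 28.6 CPM in BT-16 and from 19.8 to 39.2 CPM in CHLA-266 (1.01 ± 0.25, adjusted *p* value = 0.015), a call that was lost without untreated BT-16. *HSPA2*, known for its role in the formation of sperm, had 34 counts in each untreated library and 132 and 150 counts in treated BT-16 and CHLA-266 cells (2.30 ± 0.59, adjusted *p* value = 0.0174), and it did not pass the threshold without treated CHLA-266. At 52.9 and 60.1 counts per kilobase, *HSPA2* lay above the 95th percentile of olfactory receptor genes in both treated libraries. *HSPA6*, which is silent in most unstressed cells, had 30 counts before and 111 after treatment in BT-16, and 58 before and 110 after in CHLA-266 (1.55 ± 0.66, adjusted *p* value = 0.0959), and 27.5% of its windows occur in transcripts of other genes such as *HSPA7*. *HSPA1L* and *HSPA12B* had at most 145 counts in any library, and neither passed the threshold.

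*HSPA14*, which binds ribosomes together with the J-domain protein DNAJC2, fell most among all members. It had 26.2 CPM before and 8.41 after treatment in BT-16, and 29.9 before and 8.08 after in CHLA-266, a log2 fold change of −1.77 ± 0.22 (adjusted *p* value = 0.000637). Its partner *DNAJC2* had 150 and 119 CPM and 176 and 142 CPM (−0.32 ± 0.17, adjusted *p* value = 0.172). Of the windows of *HSPA14*, 13.2% occur in transcripts of *MSANTD7*, so part of its counts is uncertain. *HSPA13*, an HSP70 of the ER without a substrate-binding domain, went from 96.3 to 55.2 CPM in BT-16 and from 108 to 50.1 CPM in CHLA-266 (−0.96 ± 0.16, adjusted *p* value = 0.00282).

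The exchange factors of the HSP110 type mostly fell. *HSPH1* went from 506 to 328 CPM in BT-16 and from 610 to 323 CPM in CHLA-266 (−0.78 ± 0.17, adjusted *p* value = 0.00932), and *HSPA4L* from 249 to 150 CPM and from 267 to 160 CPM (−0.73 ± 0.16, adjusted *p* value = 0.0085). *HSPA4*, the most abundant of them, went from 819 to 661 CPM and from 854 to 690 CPM and did not pass the threshold (−0.31 ± 0.16, adjusted *p* value = 0.163). Of 13 nucleotide exchange factors and other HSP70 cochaperones with other names, 1 was upregulated and 5 (38.5%) were downregulated, with a median of −0.29. This was near the 37% and the median of −0.33 of genes with a mean of at least 1000 counts. With upper quartiles, 4 of the 13 genes were upregulated and 3 downregulated. *HYOU1*, which serves BiP in the ER, went from 569 to 236 CPM and from 475 to 274 CPM (−1.04 ± 0.18, adjusted *p* value = 0.00319), whereas *SIL1*, another exchange factor of BiP, rose from 56.7 to 75.9 CPM and from 45 to 86.9 CPM (0.68 ± 0.18, adjusted *p* value = 0.0187). *BAG3*, the partner of HSPB8, had 133 CPM before and 150 after treatment in BT-16, and 125 before and 148 after in CHLA-266 (0.20 ± 0.15, adjusted *p* value = 0.317).

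*HSPB8* (chr12:119171555-119224855, 3 exons) showed the largest fold change of the members past the threshold. This small HSP acts with BAG3 in the removal of misfolded proteins by autophagy and is abundant in muscle. It had 6 counts before and 129 after treatment in BT-16, and 0 before and 118 after in CHLA-266 (5.59 ± 1.14, adjusted *p* value = 0.00684). Within CHLA-266, this was at least 46.6-fold higher when the untreated library was set to 3 counts. The estimate depended on the untreated libraries, since it was 10.01 without untreated BT-16 and 4.66 without untreated CHLA-266. At 69.3 and 63.4 counts per kilobase, *HSPB8* lay above the olfactory receptor yardstick in both treated libraries and below it in both untreated ones. It stayed a gene of low level, with 2.23 and 2.27 CPM after treatment.

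*HSPB1* (HSP27) made up nearly all of the small HSP level and did not pass the threshold, with 515 CPM before and 410 after treatment in BT-16, and 402 before and 315 after in CHLA-266 (−0.34 ± 0.20, adjusted *p* value = 0.209). *HSPB7*, a small HSP of heart and muscle, had 4 counts before and 27 after treatment in BT-16, and 10 before and 62 after in CHLA-266 (2.90 ± 1.16, adjusted *p* value = 0.0824). *HSPB3*, *HSPB6*, and *HSPB9* had at most 26 counts in any library. *HSPB3*, *HSPB6*, *HSPB7*, and *HSPB9* did not exceed the olfactory receptor yardstick in both treated libraries. *CRYAB*, a small HSP with another name, had 20 counts before and 456 after treatment in BT-16, and 18 before and 104 after in CHLA-266 (4.08 ± 0.74, adjusted *p* value = 0.00406). The 8 muscle markers summed to 479 and 1077 CPM in BT-16 and to 433 and 1576 CPM in CHLA-266, nearly all of it from *TTN* and *TNNT1*. The other 6 summed to 0.536 and 10.6 CPM and to 0.65 and 6.25 CPM, with 3 and 1 of them at 0 in the untreated and none in the treated libraries. Whether the rise of *HSPB8* and *CRYAB* and that of muscle markers share a source was not tested.

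**Figure D3:**
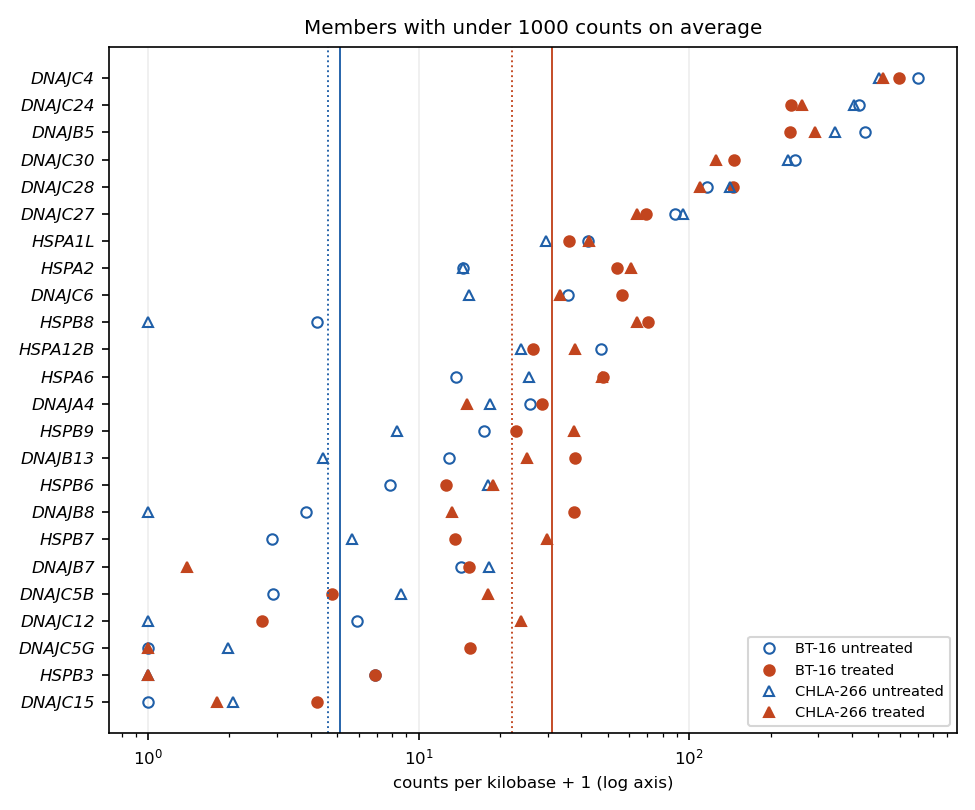
Counts per kilobase, with 1 added and on a log axis, of the 24 members with a mean under 1000 counts. Marks are libraries as in the legend, and vertical lines are the 95th percentile of 388 olfactory receptor genes in untreated (blue) and treated (red) BT-16 (solid) and CHLA-266 (dotted) cells. *HSPB8* crosses from below the blue lines to 69.3 and 63.4 counts per kilobase, beyond the red lines, while 12 members do not exceed the yardstick in both treated libraries.

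The mitochondrial chaperonin was also lower. *HSPD1* (HSP60) went from 1392 to 645 CPM in BT-16 and from 1494 to 674 CPM in CHLA-266 (−1.13 ± 0.17, adjusted *p* value = 0.00152). *HSPE1* (HSP10), which forms its lid, went from 27.4 to 18.1 CPM and from 29.7 to 14.6 CPM (−0.80 ± 0.21, adjusted *p* value = 0.0187), with 31.3% of its windows also in transcripts of other genes. Of 9 mitochondrial chaperones among the members, 6 were downregulated and none was upregulated, with a median of −0.57, against 19.1% downregulated among all genes and 37% among those with a mean of at least 1000 counts. These were *HSPA9*, *HSPD1*, *HSPE1*, *DNAJA3*, *DNAJC11*, and *DNAJC19*, of which only *HSPD1* kept its call with upper quartiles (median of the 9 genes −0.22). *TRAP1*, the HSP90 of mitochondria under another name, went from 205 to 77.5 CPM and from 168 to 75.9 CPM (−1.28 ± 0.17, adjusted *p* value = 0.000878).

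J-domain proteins decide which clients reach HSP70. Of the 12 genes of the DNAJB class, 3 (25%) were upregulated and 2 (16.7%) downregulated, against 16.1% and 19.1% of all genes. HSP70 also held 3 of the 7 upregulated members, among 14 genes. *DNAJB4*, a cytosolic partner of HSP70, went from 46.8 to 127 CPM in BT-16 and from 38.8 to 102 CPM in CHLA-266 (1.42 ± 0.18, adjusted *p* value = 0.000777). *DNAJB9* (ERdj4), an ER protein that binds BiP, went from 14.8 to 45 CPM and from 18.3 to 38.6 CPM (1.34 ± 0.20, adjusted *p* value = 0.00172). *DNAJB2*, known from neurons, where it sorts clients for degradation, had 34.4 CPM before and 42.9 after treatment in BT-16, and 27.4 before and 55.4 after in CHLA-266 (0.67 ± 0.20, adjusted *p* value = 0.0325) and lost its call without either CHLA-266 library. The treated libraries lay above the untreated ones for all 3 genes, although the gap between untreated and treated BT-16 was small for *DNAJB2*.

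*DNAJB11* (ERdj3), another partner of BiP, moved the other way than *DNAJB9*, from 128 to 87.4 CPM in BT-16 and from 139 to 71.5 CPM in CHLA-266 (−0.74 ± 0.17, adjusted *p* value = 0.0106). *DNAJB6*, which hinders protein aggregation, went from 126 to 87.1 CPM and from 138 to 100 CPM (−0.49 ± 0.16, adjusted *p* value = 0.0432) and lost its call with size factors, upper quartiles, and library totals. *DNAJB1*, the main partner of inducible HSP70, had 190 CPM before and 217 after treatment in BT-16, and 203 before and 260 after in CHLA-266 (0.28 ± 0.17, adjusted *p* value = 0.214). *DNAJB8*, a gene of testis, had 6 counts before and 77 after treatment in BT-16, and 0 before and 26 after in CHLA-266 (4.30 ± 1.48, adjusted *p* value = 0.0513), and at 12.3 counts per kilobase it lay below the olfactory receptor yardstick in treated CHLA-266 cells. *DNAJB5*, *DNAJB7*, *DNAJB12*, *DNAJB13*, and *DNAJB14* did not pass the threshold.

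Of 13 ER chaperones among the members, 1 (7.69%) was upregulated (*DNAJB9*) and 4 (30.8%) were downregulated (*HSPA5*, *HSPA13*, *HSP90B1*, and *DNAJB11*). The shares were 16.1% and 19.1% among all genes, and 10.3% and 37% among those with a mean of at least 1000 counts. The median of the 13 genes was −0.17. With upper quartiles 4 were upregulated and 2 downregulated, and the median was 0.17, so that both the balance and the sign turned with the scaling. The 13 genes summed to 2945 CPM before and 1810 after treatment in BT-16 and to 3213 before and 2120 after in CHLA-266, so *DNAJB9* was a small part of the group at its highest level of 45 CPM.

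In the DNAJA class, which resembles the bacterial DnaJ most, *DNAJA3* (TID1) of mitochondria went from 144 to 90.4 CPM in BT-16 and from 121 to 89.6 CPM in CHLA-266 (−0.56 ± 0.16, adjusted *p* value = 0.0284). *DNAJA1*, the most abundant J-domain gene, had 981 and 764 CPM and 1132 and 778 CPM (−0.45 ± 0.17, adjusted *p* value = 0.0654). *DNAJA2* and *DNAJA4* did not pass the threshold. No DNAJC gene was upregulated and 5 of 28 were downregulated, a share of 17.9% that is close to the 19.1% of all genes. *DNAJC9*, a chaperone of histones, fell most, from 83.2 to 33.5 CPM in BT-16 and from 80.2 to 27 CPM in CHLA-266 (−1.43 ± 0.17, adjusted *p* value = 0.000579). *DNAJC8* and *DNAJC17*, which take part in splicing, went from 291 to 200 CPM and from 30.5 to 21.5 CPM in BT-16, with log2 fold changes over both cell lines of −0.59 ± 0.18 and −0.59 ± 0.19, with adjusted *p* values of 0.0334 and 0.0374. *DNAJC19*, of the import motor of mitochondria, and *DNAJC11*, also mitochondrial, had −0.60 ± 0.18 and −0.54 ± 0.18 (adjusted *p* values 0.0354 and 0.0436). These 4 genes lost their call with upper quartiles and with library totals. *DNAJC7*, the second DNAJC gene by level per kilobase, had 191 CPM before and 168 after treatment in BT-16, and 202 before and 186 after in CHLA-266 (−0.15 ± 0.16, adjusted *p* value = 0.469). *DNAJC5G*, nearly absent before treatment, had 0 counts before and 30 after treatment in BT-16, and 2 before and 0 after in CHLA-266.

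With the cell line as a block, which pairs the libraries of each cell line, 10 members were upregulated and 24 downregulated, against 17.9% and 23.7% of all genes. All 27 calls remained, and 7 were added. *DNAJB8* (adjusted *p* value = 0.0279), *DNAJB14* (0.0225), and *DNAJC6* (0.0341) became upregulated, and *DNAJA1* (0.0149), *DNAJC3* (0.0203), *DNAJC21* (0.0272), and *DNAJC22* (0.0145) downregulated. *DNAJC3*, *DNAJC6*, *DNAJC21*, and *DNAJC22* are named because of these values.

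Members matched all genes in how often the sign of the change was shared by both cell lines. Within a cell line, where 1 library stands for each condition and no test is possible, the log2 ratio of treated to untreated had the same sign in both lines for 58 of 70 members (82.9%), among them all 27 past the threshold, and for 84.6% of all genes. CPM of both treated libraries lay above both untreated libraries in 16 of 70 members and below them in 32, against 40.2% and 32.3% of all genes. Among the 46 members with a mean of at least 1000 counts these numbers were 7 and 29. Of the 7851 genes of such abundance, 1589 lay above and 4492 below. Intervals of counting error of the ratio (95%, Clopper-Pearson, from halved counts) did not include 0 in either cell line for any of the 27. For *HSP90AA1* the ratio was −1.03 in both cell lines, and for *HSPA1A* BT-16 had 0.67 and CHLA-266 had 0.98, with intervals of 0.62 to 0.73 and 0.92 to 1.03. *DNAJB2* had 0.32 and 1.02, and *DNAJB9* 1.61 and 1.08. Whether the response differed between cell lines could not be tested.

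**Figure D4:**
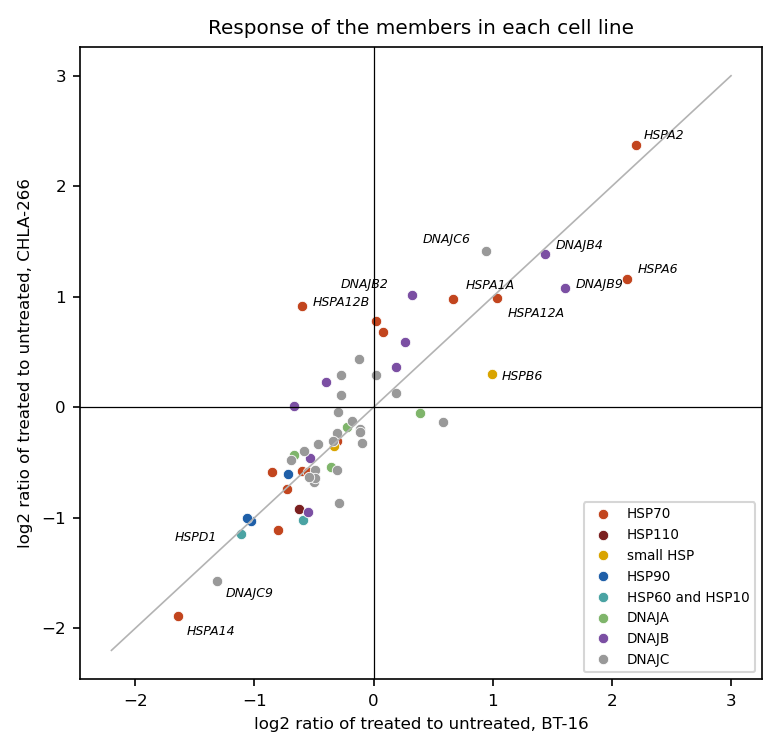
log2 ratio of treated to untreated CPM in BT-16 (horizontal) and CHLA-266 (vertical) for the 59 members with at least 10 counts in every library, colored by family; the grey line marks equal ratios. HSP90 and HSP60 genes lie near the line below 0, and *HSPA2*, *DNAJB4*, *DNAJB9*, *HSPA12A*, and *HSPA1A* lie above 0 in both cell lines.

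The cell lines were also compared with each other. With the condition in the model, none of 70 members passed the threshold between CHLA-266 and BT-16 (edgeR), against 2.3% of all genes. At an unadjusted *p* value under 0.05 there were 4 (*DNAJA2*, *HSPB1*, *DNAJB14*, and *HSPA12A*), and DESeq2 also called none. The smallest adjusted *p* value was 0.167 for *DNAJB14*, whose log2 difference of CHLA-266 minus BT-16 was 0.44. *HSPB1* had a log2 difference of −0.37 (adjusted *p* value = 0.285) and passed the threshold with library totals (adjusted *p* value = 0.0476).

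Summed per kilobase of transcript and normalized by TMM, the members had 10366 CPM per kilobase before and 6533 after treatment in BT-16, and 10579 before and 6754 after in CHLA-266. The log2 ratio of these sums was −0.66 ± 0.01 (SD, n = 2 cell lines) with TMM, −0.43 with library totals, and −0.31 with upper quartiles, so the scaling moved it far more than the cell lines differed. Members took 2.58% of all counts before and 1.96% after treatment in BT-16, and 2.7% before and 1.92% after in CHLA-266. Most of the sum came from *HSP90AA1*, *HSP90AB1*, and *HSPA8*, with means of 1750, 1668, and 1499 CPM per kilobase over the libraries, followed at a distance by *HSPB1* at 528. HSP90 held 46.6% of the summed level in both untreated cell lines and 39.8% and 41% in treated BT-16 and CHLA-266 cells, a change of −6.20 ± 0.81 percentage points (SD, n = 2). The share of HSP60 and HSP10 changed by −1.76 ± 0.28 percentage points and that of HSP110 by −0.08 ± 0.15. The shares of HSP70 (2.48 ± 0.26), DNAJB (1.85 ± 0.08), small HSP (1.42 ± 0.40), DNAJC (1.36 ± 0.02), and DNAJA (0.93 ± 0.34) grew in both cell lines. With TMM, DNAJB was the family whose summed level did not drop, with 284 CPM per kilobase before and 296 after treatment in BT-16, and 299 before and 319 after in CHLA-266, while HSP90 went from 4829 to 2601 and from 4929 to 2766. These shares do not depend on the scaling of libraries but do depend on the lengths. Without division by length the change was 0.44 percentage points for small HSP, and with the union of all exons as length it was −0.91 for HSP60 and HSP10.

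**Figure D5:**
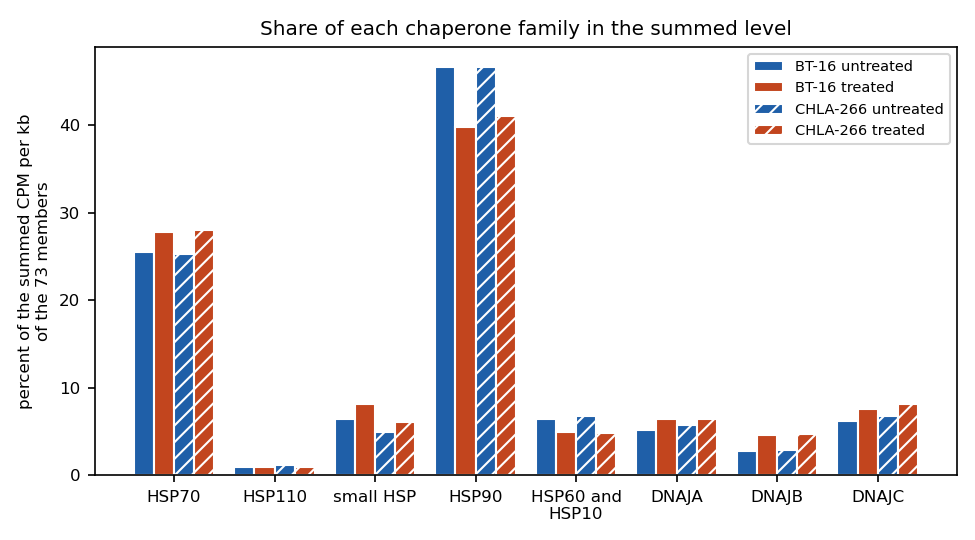
Share of each family in the summed CPM per kilobase of the 73 members, by library. Bars start at 0, blue bars are untreated and red bars treated, and hatched bars are CHLA-266. HSP90 drops from 46.6% to 39.8% and 41%, and DNAJB grows from 2.74% and 2.83% to 4.53% and 4.73%.

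HSF1 binds heat shock elements, which are rows of the unit NGAAN in alternating orientation. RefSeq promoters (GRCh38.p14, from 250 bases before to 50 bases after a start site) were available for 64 of the 70 members tested. A row of 3 adjacent units on either strand occurred in 7 of these 64 members (10.9%) and in 77 of 14383 genes tested (0.535%). The matched bases are shown here because members of 5 families held the same textbook element, with GAA and its reverse complement TTC in capitals.
HSPA6: gTTCgcGAAagTTCg
HSPA8, far from the start: tGAAagTTCcaGAAc
HSPA8, near the start: cTTCtgGAAggTTCt
HSP90AA1: cTTCcgGAAggTTCg
HSP90AB1, far from the start: gTTCtgGAAgaTTCa
HSP90AB1, near the start: gTTCtgGAAgcTTCt
HSPD1: gGAAagTTCtgGAAc
DNAJB6: aGAAccTTCgcGAAg
DNAJA1, after the start: gGAActTTCcaGAAc
In *HSPD1* a further match overlaps the one shown. Of the 7 genes, *HSPA8*, *HSP90AA1*, *HSP90AB1*, *HSPD1*, and *DNAJB6* were downregulated, none was upregulated, and *HSPA6* and *DNAJA1* did not pass the threshold, with a median log2 fold change of −0.59, against 19.1% downregulated among all genes and 37% among abundant ones. *HSPA8*, *HSP90AB1*, and *DNAJB6* lost their call with upper quartiles and with library totals, which left 2 of the 7 genes. The only one above 0 was *HSPA6*. A row of 2 units, which 14.6% of all genes have, occurred in 32.8% of the members. Among these, *HSPA1A*, *HSPB8*, and *DNAJB4* were upregulated. *HSPA8*, *HSPA9*, *HSPA4L*, *HSP90AA1*, *HSP90AB1*, *HSPD1*, and *DNAJB6* were downregulated, and the others did not pass the threshold. A match is a description of the letters and not a site of binding.

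The promoters of *HSPA8*, *HSP90AA1*, and *HSPA6* are printed for comparison, since the first and second were abundant and downregulated and the other was rare, with more counts after treatment. Each run holds the 250 bases before the start site, 5′ to 3′ on the strand of the gene, with GAA and TTC of the matched units in capitals.
HSPA8, chr11:123062137-123062386, minus strand: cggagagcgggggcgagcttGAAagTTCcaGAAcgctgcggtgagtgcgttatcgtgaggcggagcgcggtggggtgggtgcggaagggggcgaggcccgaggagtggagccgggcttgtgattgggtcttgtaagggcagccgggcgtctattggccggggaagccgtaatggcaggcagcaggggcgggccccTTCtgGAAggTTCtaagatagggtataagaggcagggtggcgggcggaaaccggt
HSP90AA1, chr14:102087045-102087294, minus strand: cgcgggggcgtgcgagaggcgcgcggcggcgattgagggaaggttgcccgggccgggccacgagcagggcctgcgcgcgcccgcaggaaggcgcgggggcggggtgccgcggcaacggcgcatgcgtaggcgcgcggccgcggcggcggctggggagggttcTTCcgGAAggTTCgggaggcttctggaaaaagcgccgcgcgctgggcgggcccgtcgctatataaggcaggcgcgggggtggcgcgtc
HSPA6, chr1:161524290-161524539, plus strand: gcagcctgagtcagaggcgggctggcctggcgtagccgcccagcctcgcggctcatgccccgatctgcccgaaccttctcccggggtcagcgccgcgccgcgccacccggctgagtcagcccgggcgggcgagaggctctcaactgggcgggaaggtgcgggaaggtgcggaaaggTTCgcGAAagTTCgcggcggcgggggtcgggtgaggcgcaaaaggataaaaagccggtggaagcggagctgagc

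In the ER, the unfolded protein response acts in part through an element with CCAAT and CCACG 9 bases apart. It occurred in *HSPA5* and *HSP90B1* alone among the members with a promoter (3.12%), and in 0.139% of all genes tested. Both were downregulated. *DNAJB9*, the upregulated ER member, had no match in its window. The bases of *HSPA5* and of both places in *HSP90B1*, of which the second is on the opposite strand, are shown with the fixed letters in capitals.
HSPA5: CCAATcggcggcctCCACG
HSP90B1, far from the start: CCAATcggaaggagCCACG
HSP90B1, near the start: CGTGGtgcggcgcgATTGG
The promoter of *HSPA5* (chr9:125241344-125241593, minus strand) reads as follows.
HSPA5: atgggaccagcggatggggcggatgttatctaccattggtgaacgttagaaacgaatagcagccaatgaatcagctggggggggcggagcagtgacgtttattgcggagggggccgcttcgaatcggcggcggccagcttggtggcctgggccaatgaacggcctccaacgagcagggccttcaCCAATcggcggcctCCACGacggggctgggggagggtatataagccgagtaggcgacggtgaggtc

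Other genes of the chaperone network were described by lists of textbook members. Of 6 genes of HSF factors and their inhibitor *HSBP1*, none was upregulated and *HSBP1* was downregulated (−0.67 ± 0.19, adjusted *p* value = 0.0254). *HSF1* had 78.1 CPM before and 64.1 after treatment in BT-16, and 52 before and 57 after in CHLA-266 (−0.10 ± 0.21, adjusted *p* value = 0.71), and *HSF2* went from 133 to 106 CPM and from 122 to 74 CPM (−0.50 ± 0.20, adjusted *p* value = 0.0774, or 0.00602 with the block). Of 26 textbook targets of HSF1, members included, 5 were upregulated and 11 (42.3%) downregulated, with a median of −0.32. Among 20 genes tested of the list of HSP90 cochaperones and *TRAP1*, 8 (40%) were downregulated and none was upregulated, with a median of −0.52. Both downregulated shares were near the 37% of genes with a mean of at least 1000 counts, of which 10.3% were upregulated. Among all genes, 16.1% were upregulated and 19.1% downregulated. *PTGES3* (p23), which closes the HSP90 cycle, had −1.20 ± 0.16 (adjusted *p* value = 0.00104), and *PPP5C*, a phosphatase bound to HSP90, −1.09 ± 0.16 (adjusted *p* value = 0.00135).

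Chaperonin TRiC, which folds actin and tubulin, and its partner prefoldin had 9 of 13 genes downregulated and none upregulated, with a median of −0.91. For this and the next lists, 16.1% of all genes were upregulated and 19.1% downregulated. The shares were 10.3% and 37% among genes with a mean of at least 1000 counts, whose median was −0.33. *CCT2* went from 460 to 213 CPM in BT-16 and from 501 to 210 CPM in CHLA-266 (−1.18 ± 0.16, adjusted *p* value = 0.00102). Of a mixed list of 7 genes of disaggregation, protein degradation, and stress granules, 1 was upregulated and 2 were downregulated. *SQSTM1* (p62), a receptor of selective autophagy, rose from 293 to 907 CPM in BT-16 and from 239 to 863 CPM in CHLA-266 (1.73 ± 0.18, adjusted *p* value = 0.000245). Of 9 housekeeping genes, 1 was upregulated and 5 were downregulated, with a median of −0.66. With upper quartiles, 24.1% of all genes were upregulated and 10.5% downregulated. In TRiC and prefoldin 1 gene was then upregulated and 7 were downregulated (median −0.56). For HSP90 cochaperones and *TRAP1* the counts were 2 and 5 (median −0.18). The list of HSF1 targets then had 8 upregulated and 5 downregulated genes (median 0.03), and that of exchange factors 4 and 3 (median 0.06), so that the median of both changed sign with the scaling.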

How the data were processed

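The 4 libraries were made with a stranded kit that amplifies cDNA and sequenced with paired ends. The authors demultiplexed (bcl2fastq 2.20), trimmed, aligned to hg38 with STAR, counted reads per gene, removed genes of the sex chromosomes, and deposited estimated counts for 18449 symbols, in which 5 fractional values of 2 genes were rounded. The authors also deposited log2 values from the variance-stabilizing transformation of DESeq2 (17553 genes), which served in 1 alternative.

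Genes with a total above 0 (18066) were tested with edgeR 4.0.16 in R 4.3.3 (quasi-likelihood test, TMM, Benjamini-Hochberg, adjusted *p* value under 0.05), with untreated against treated libraries and no term for the cell line. Alternatives were a block for the cell line, DESeq2 1.42.0, limma 3.58.1, other scalings and filters, a limit on the log2 fold change, and each library left out. The SE of an edgeR log2 fold change is its absolute value divided by the square root of the F statistic of its test. The libraries of a block come from the same cell line, and their deviations from the condition means correlated at 0.263 over 12620 genes. Nothing states separate cultures, so *p* values measure the spread between these libraries.

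Lengths are those of the Ensembl canonical transcripts of GENCODE 44 on hg38. Log2 ratios within a cell line used 0.5 added counts. Low counts were mostly even (20.5% to 34.2% odd among counts from 1 to 20), so pairs may have been counted as 2 reads; counts were halved for intervals, which cover counting error only. Promoters came from RefSeq. Of 85 promoters of members, 78 ended in a GENCODE transcript of their gene. The planned description of proteins was not made here, since no protein sequences were at hand.

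The members and all gene lists were chosen with earlier results of these data known. All members outside DNAJC could be named. Of DNAJC, the rule took those past the threshold (up to 6 per direction, same sign in both cell lines), the 3 most abundant, and those with at most 3 counts in both untreated libraries. Of other lists it took up to 3 genes per direction past the threshold and *HSF1*, *HSF2*, *BAG3*, *HYOU1*, *TRAP1*, and *CRYAB*. Other genes were named after their values were seen.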

Additional observations from a re-analysis of the deposited data

Results flagged for a closer look

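In 4 members the log2 ratio of treated to untreated had opposite signs in the cell lines, with intervals of counting error that did not include 0. In BT-16 and CHLA-266, respectively, it was −0.60 and 0.92 for *HSPA12B*, −0.40 and 0.23 for *DNAJB12*, −0.27 and 0.29 for *DNAJC14*, and −0.12 and 0.44 for *DNAJC16*. Each cell line gave 1 library per condition, so the difference between them was not tested. Of the windows of *DNAJC14*, 27.7% also occur in transcripts of other genes. *DNAJC14* and *DNAJC16* are named because of these values.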

How the results depend on the processing

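The count of 7 upregulated members was 13 with upper-quartile normalization and ranged from 6 to 8 when each library was left out. The count of 20 downregulated members was 6 with upper quartiles, 9 with library totals, 10 when every library had to hold at least 10 counts of a gene, and 5 with an absolute log2 fold change of at least 1. It ranged from 9 to 19 when each library was left out. With the cell line as a replicate block it was 24, beside 10 upregulated members, which is within 1.5 times the count without the pairing. Under the 9 alternatives that give a *p* value without leaving out a library, 6 of the 7 upregulated and 6 of the 20 downregulated members passed the threshold each time. *HSPB8* was the exception among the former, since the filter of 10 counts in every library removed it. No member past the threshold changed its sign. No member differed between the cell lines except 1, higher in BT-16, with library totals. Leaving out a library there was not possible without losing all residual degrees of freedom.

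The summed log2 ratio of −0.66 was −0.43 with library totals, −0.31 with upper quartiles, −0.59 with size factors, −0.67 without division by length or without *HSPA1A* and *HSPA1B*, and −0.63 with the union of all exons as length. Upper quartiles and the union of exons were alternatives for these sums chosen after seeing the data. Without division by length, the change in share was 3.01 percentage points for HSP70, 0.44 for small HSP, −1.38 for HSP60 and HSP10, 1.99 for DNAJB, and 1.85 for DNAJC. With the union of exons it was 2.86 for HSP70, −0.91 for HSP60 and HSP10, 1.58 for DNAJB, and 1.00 for DNAJC, and without *HSPA1A* and *HSPA1B* it was 1.65 for HSP70. The causes were not tested. Depth limits members with few counts, since 11 of 70 had under 10 counts in a library.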
